A study of Mus musculus with 8 samples.

Results

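The Nr4a family of orphan nuclear receptors, Nr4a1, Nr4a2 and Nr4a3, was examined in mouse peritoneal macrophages treated with the small molecule C498, lipopolysaccharide (LPS) or both. The members are the rows of the gene table that carry these 3 symbols, 3 genes of 55801, and they were chosen by their measured values, for their strong rise with C498. Their difference between C498 and NC, and between C498+LPS and LPS, is therefore given as a description without a test. RNA was sequenced in 8 samples, 2 in each of 4 groups. NC received the DMSO vehicle, LPS received 100 ng/ml of LPS for 4 h, C498 received 15 µM of the compound, and C498+LPS received the compound 0.5 h before the same LPS challenge. The macrophages of all 4 groups were elicited by thioglycollate for 72 h in C57BL/6 mice aged 6 to 8 weeks, and no group of unelicited cells was measured. C498 was selected in a reporter screen for inhibitors of JAK/STAT and NFκB signaling, and the comparison of the groups asks how it alters the response to LPS, a bacterial product sensed by Toll-like receptor 4. The sources used here do not say whether the 2 samples of a group came from separate animals or cultures, so the p-values measure only the spread between these samples.

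Nr4a proteins are nuclear receptors whose ligand-binding pocket is filled by bulky side chains, so that their activity follows mainly from how much protein is made. They bind DNA as monomers at the NBRE element or as dimers at the NurRE element, and Nr4a1 and Nr4a2 can also pair with the retinoid X receptors. All 3 are immediate-early genes, transcribed from pre-existing factors such as CREB, MEF2 and SRF within minutes to hours of a stimulus. In macrophages they are induced by LPS, and they are mostly known there as brakes on NFκB-driven cytokine genes.

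The promoters are shown because they are where such pre-existing factors act and because all 3 hold the same short motif. In the 250 bases before each RefSeq start site (GRCm38.p6), each gene holds 4 copies of TGACG, the core of the cAMP response element (CRE) bound by CREB, counted on both strands. Capitals mark the motif, written TGACG on the strand of the gene and CGTCA where it lies on the other strand. The Nr4a1 stretch is chr15:101266596-101266845 on the plus strand and the Nr4a2 stretch is chr2:57124004-57124253 on the minus strand, 250 bases each. The Nr4a1 stretch lies inside the span of the gene in GENCODE M21, which starts at chr15:101254269, and the bases before that start were not examined. The Nr4a3 stretch is chr4:48045055-48045152 on the plus strand, the first 98 bases of its window, which stop where GENCODE M21 places the first exon and hold 3 of its 4 copies.
Nr4a1: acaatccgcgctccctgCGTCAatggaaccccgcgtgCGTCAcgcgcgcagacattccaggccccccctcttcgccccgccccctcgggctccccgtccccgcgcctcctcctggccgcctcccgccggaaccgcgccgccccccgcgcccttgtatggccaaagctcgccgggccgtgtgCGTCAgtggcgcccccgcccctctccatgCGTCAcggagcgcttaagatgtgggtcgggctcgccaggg
Nr4a2: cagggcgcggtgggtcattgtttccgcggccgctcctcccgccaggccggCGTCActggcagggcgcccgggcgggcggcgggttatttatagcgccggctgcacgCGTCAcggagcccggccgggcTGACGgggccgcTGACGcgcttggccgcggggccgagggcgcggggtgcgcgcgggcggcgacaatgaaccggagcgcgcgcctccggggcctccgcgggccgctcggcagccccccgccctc
Nr4a3: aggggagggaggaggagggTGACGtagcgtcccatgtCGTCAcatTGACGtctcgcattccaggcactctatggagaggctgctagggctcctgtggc

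The motif was present at least once in 17.8% of the 32851 promoters of the RefSeq table, at least 2 times in 3.9% and at least 4 times in 0.137%, or 45 promoters. Counted per gene, 44 of 27025 genes with a promoter in the table held 4 or more copies, and the 3 Nr4a genes are among these 44. The motif was singled out of those searched because all 3 members hold it, and the cutoff of 4 is their own count. These shares are therefore a description and not a test. The positions of the copies differed between the members. In Nr4a1 their first bases lay at -233, -213, -69 and -40, where -1 is the base before the start site. The copies of Nr4a2 began at -200, -144, -123 and -111, and those of Nr4a3 at -231, -213, -205 and -147. The full palindromic CRE, TGACGTCA, was found in 1.55% of all promoters and in no member. None of the 3 windows held the monomer element of the family itself (NBRE, AAAGGTCA, 1.34% of promoters), an AP-1 site (TGANTCA, 6.75%), a CArG box (1.47%) or a kappaB site (7.25%). Nr4a2 alone held a MEF2 site (2.92% of promoters). It overlapped a match to the TATA box letters (TATAAA, 12.4% of promoters), which lay on the other strand as TTTATA at -164 to -159. Of other immediate-early genes, 12 of the 20 with a promoter in the table held at least 1 copy of TGACG and 6 held at least 2, beside 19.8% and 4.46% of all genes, and none held 4. These are matches of letters in a fixed window and do not show that a factor was bound.

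**Figure D1:**
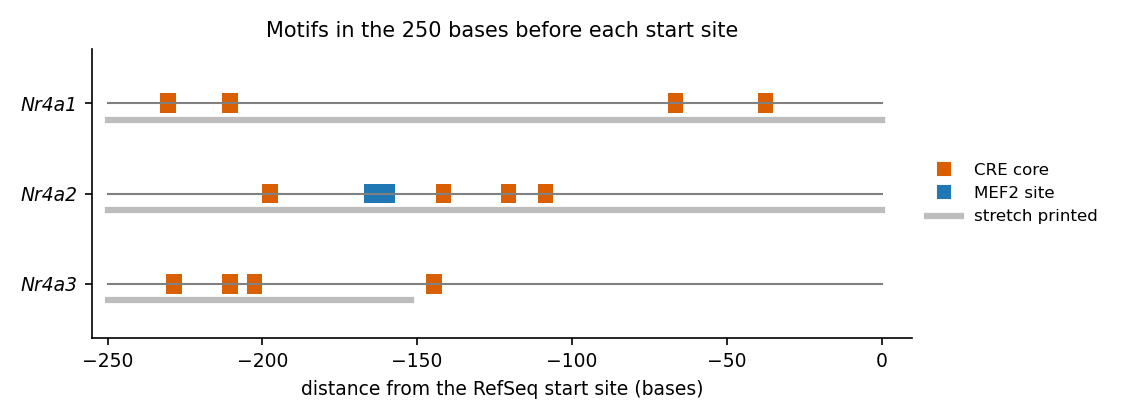
Positions of the CRE core motif (orange) and of a MEF2 site (blue) in the 250 bases before the RefSeq start site of each Nr4a gene, in bases from the start, with the printed stretch in light grey. Each gene holds 4 copies of the core motif at different distances, and Nr4a2 alone holds the MEF2 site.

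Nr4a1, also called Nur77, is the member most studied in macrophages. Its gene (ENSMUSG00000023034, chr15:101254269-101274795, plus strand, GENCODE M21 on GRCm38) was present at 0.97 and 1.27 TPM in NC, 1.44 and 1.79 TPM in LPS, 105.09 and 104.0 TPM in C498, and 42.82 and 49.75 TPM in C498+LPS. TPM, a measure of transcript abundance, is scaled by gene length and by the total of each sample. The 4 samples with C498 lay far above the 4 without it, and the C498 samples lay above both C498+LPS samples. The group means were 1.12 ± 0.212, 1.62 ± 0.247, 104.5 ± 0.771 and 46.3 ± 4.9 TPM (SD, n = 2). The mean in C498 was 93.3 times that in NC, and the mean in C498+LPS was 28.7 times that in LPS.

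Nr4a2, also called Nurr1, is known for its part in the development of dopaminergic neurons. Its gene (ENSMUSG00000026826, chr2:57106830-57124003, minus strand) was present at 0.38 and 0.17 TPM in NC, 0.44 and 0.2 TPM in LPS, 24.14 and 24.09 TPM in C498, and 6.03 and 33.99 TPM in C498+LPS. The C498 samples were nearly equal, whereas the C498+LPS samples lay on either side of them. The means were 0.275 ± 0.148 TPM in NC, 0.32 ± 0.17 TPM in LPS, 24.1 ± 0.0354 TPM in C498 and 20.01 ± 19.8 TPM in C498+LPS (SD, n = 2). The ratio of means was 87.7 for C498 to NC and 62.5 for C498+LPS to LPS, the latter resting on 2 samples that differed by 2.32 on the log2(TPM + 1) scale. A gap at least that large between the C498+LPS samples was seen in 108 of 12189 tested genes (0.886%).

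Nr4a3, also called NOR-1, is the longest of the 3 transcripts, with 5068 bases in the deposited table beside 2477 for Nr4a1 and 3422 for Nr4a2. Its gene (ENSMUSG00000028341, chr4:48045153-48086447, plus strand) was present at 0.92 and 0.36 TPM in NC, 2.03 and 2.2 TPM in LPS, 12.15 and 12.91 TPM in C498, and 24.15 and 25.33 TPM in C498+LPS. Here the 4 groups did not overlap and C498+LPS stood highest, unlike Nr4a1, where C498 alone stood highest. The means were 0.64 ± 0.396, 2.12 ± 0.12, 12.5 ± 0.537 and 24.7 ± 0.834 TPM (SD, n = 2), in the order NC, LPS, C498 and C498+LPS. The ratio of means was 19.6 for C498 to NC and 11.7 for C498+LPS to LPS.

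**Figure D2:**
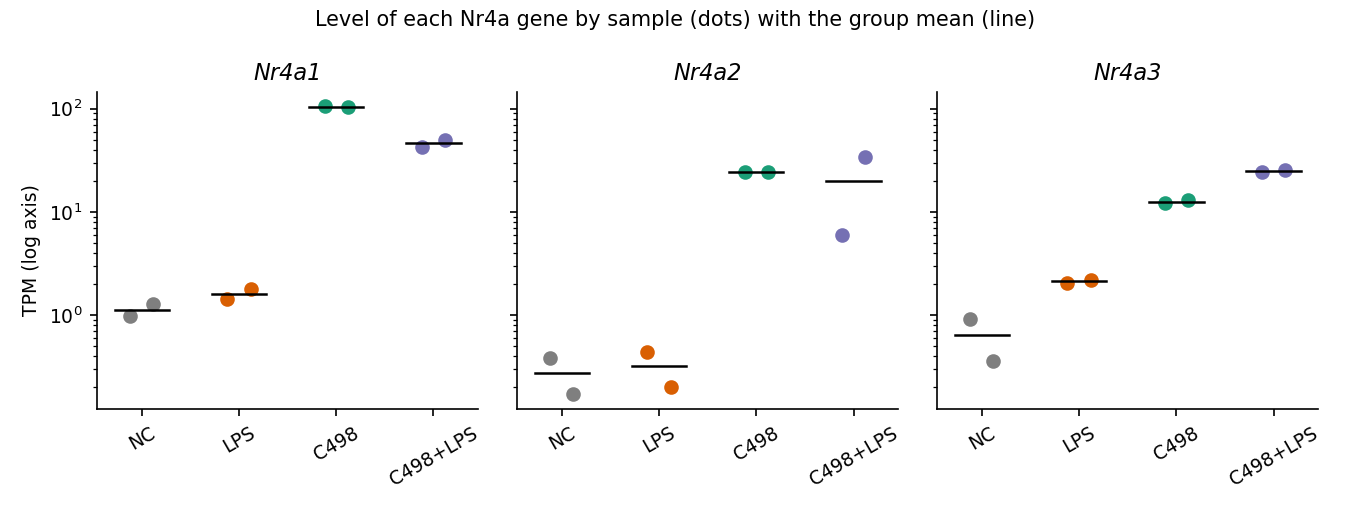
TPM of each Nr4a gene (log axis) in the 8 samples, shown as dots by group, with the mean of each group as a line. All samples without C498 sit at 2.2 TPM or lower and all with it at 6.03 TPM or higher, and the C498+LPS samples of Nr4a2 lie apart at 6.03 and 33.99 TPM.

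Levels of different genes can be compared in TPM, which is per length. In C498 the order was Nr4a1, Nr4a2 and Nr4a3, with no overlap between samples of neighbouring genes. In C498+LPS Nr4a1 remained highest, while the order of Nr4a2 and Nr4a3 was not resolved because the 2 values of Nr4a2 lay on either side of those of Nr4a3. In LPS alone Nr4a3 was the most abundant member in both samples, and in NC the samples of Nr4a2 and Nr4a3 overlapped. Ranked by group mean among the tested genes with a symbol, Nr4a1 moved from percentile 5.65 in NC to 89.4 in C498, Nr4a2 from 0.968 to 62.3, and Nr4a3 from 2.57 to 44.7.

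The summed level of the family was 1.8 to 2.27 TPM in NC, 3.91 to 4.19 TPM in LPS, 141.0 to 141.38 TPM in C498, and 73.0 and 109.07 TPM in C498+LPS. The shares of the members in this sum were as follows. Nr4a1 made up 73.8% and 74.3% of the sum in C498, and 58.7% and 45.6% in C498+LPS. The share of Nr4a3 was 8.59% and 9.16% in C498, and 33.1% and 23.2% in C498+LPS. That of Nr4a2 was 17.07% and 17.09% in C498 but 8.26% and 31.2% in C498+LPS, so it had no common direction. The level of Nr4a1 was thus 8.06 to 8.65 times that of Nr4a3 in C498 and 1.77 to 1.96 times in C498+LPS, whereas in LPS alone it was 0.709 to 0.814 times.

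**Figure D3:**
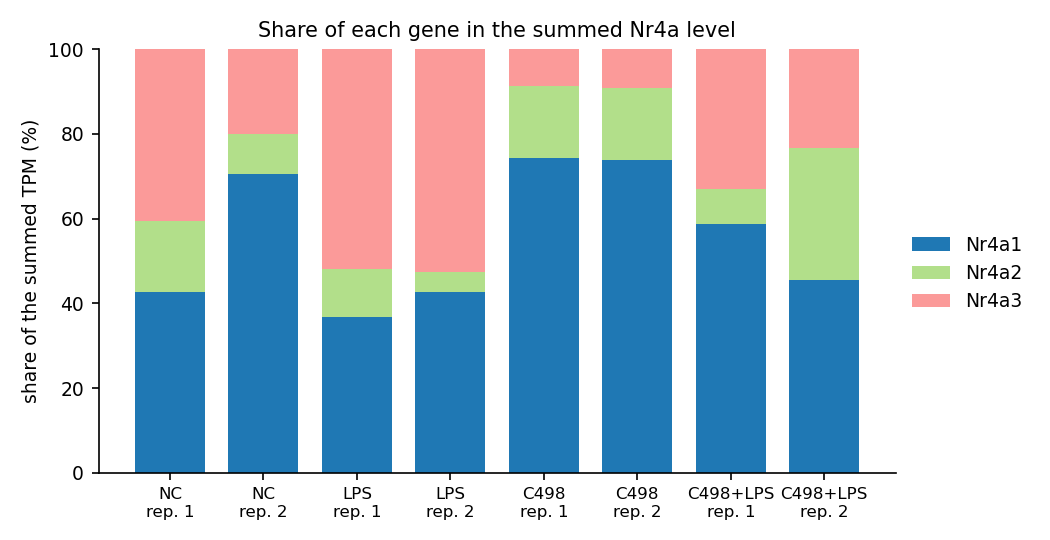
Share of Nr4a1, Nr4a2 and Nr4a3 in the summed Nr4a TPM of each sample, in percent. The share of Nr4a3 was 8.59% and 9.16% in C498 and 23.2% to 33.1% in C498+LPS.

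The response to LPS was not used to choose the members, although it shares samples with the comparisons that were. Differences were tested on log2(TPM + 1) with limma over all 8 samples, and a gene was called when it changed at least 2-fold with an adjusted p of at most 0.05. Of the 12189 genes that passed a filter on low values (a mean over all samples of 1 TPM or more), LPS vs NC called 5.55% higher and 6.68% lower, and none of the 3 members was called. All 3 passed the filter, but the mean of Nr4a2 over the NC and LPS samples was 0.298 TPM, so it passed through its level in the C498 groups. Nr4a3 differed by 0.95 (log2 scale, SE 0.206, 95% interval 0.463 to 1.43, limma adjusted p = 0.0136), just under the 2-fold threshold on the log2(TPM + 1) scale. It was higher in both LPS samples than in both NC samples. In TPM it rose from a mean of 0.64 in NC to 2.12 in LPS, which is more than 2-fold. It was called with median centring, which gave 1.12, with quantile normalization, with a pseudocount of 0.1 TPM, and without NC replicate 1. Its limma adjusted p rose above 0.05 without LPS replicate 1 (0.0660), without LPS replicate 2 (0.0780) and with only the groups compared (0.0927). Nr4a1 differed by 0.30 (95% interval -0.0626 to 0.669, limma adjusted p = 0.189) and Nr4a2 by 0.049 (95% interval -1.45 to 1.55, limma adjusted p = 0.969).

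The same question was asked after C498. The comparison of C498+LPS vs C498 called 2.52% of the tested genes higher and 3.13% lower. Nr4a1 fell by 1.16 on the log2 scale (SE 0.156, 95% interval -1.53 to -0.797, limma adjusted p = 0.00416), its mean in C498+LPS being 0.443 times that in C498. With median centring, where all 12189 genes are set to a common median per sample, the fall was 0.948 with an adjusted p of 0.0253 in limma, below 2-fold. Without C498 replicate 1 or C498 replicate 2, the value was -1.15 and -1.17 with limma adjusted p = 0.0538 and 0.0526, in fits where the lone C498 sample is assumed to vary like the other groups. Nr4a3 differed in the opposite direction, by 0.93 (SE 0.206, 95% interval 0.445 to 1.41, limma adjusted p = 0.0251), under the 2-fold threshold, and was called with median centring at 1.14 and with quantile normalization at 1.16. Its limma adjusted p rose above 0.05 with a pseudocount of 0.1 TPM (0.108), without the filter on low values (0.0661), and without any single LPS, C498 or C498+LPS sample (0.0552 to 0.145). Nr4a2 differed by -0.68 (95% interval -2.18 to 0.822, limma adjusted p = 0.513). Its value turned on the sample left out, at 0.478 without C498+LPS replicate 1 and -1.84 without C498+LPS replicate 2, where it was called lower (limma adjusted p = 0.0192), so no direction can be given.

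The difference between the LPS changes with and without C498 is the interaction, for which 0.0738% of the tested genes were called higher and 0.394% lower. It equals the difference between the described effects of C498 with and without LPS, the values by which the members were chosen, so its p-values are not independent of that choice. For Nr4a1 it was -1.47 (SE 0.22, 95% interval -1.98 to -0.948) with a limma adjusted p of 0.0504, above the threshold of 0.05. The adjusted p ranged from 0.0280 to 0.295 over the alternative settings of the limma fit, and the value from -1.67 to -1.36. For Nr4a2 it was -0.73 (95% interval -2.85 to 1.39, limma adjusted p = 0.805). For Nr4a3 it was -0.018 (95% interval -0.702 to 0.665, limma adjusted p = 0.988). In TPM its mean rose from 0.64 to 2.12 without C498, a larger ratio than the rise from 12.5 to 24.7 with it. With a pseudocount of 0.1 TPM the interaction was -0.716. The changes of Nr4a3 with LPS on the log2(TPM + 1) scale were 0.95 without C498 and 0.93 with it. The interval of their difference does not show that they are equal.

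**Figure D4:**
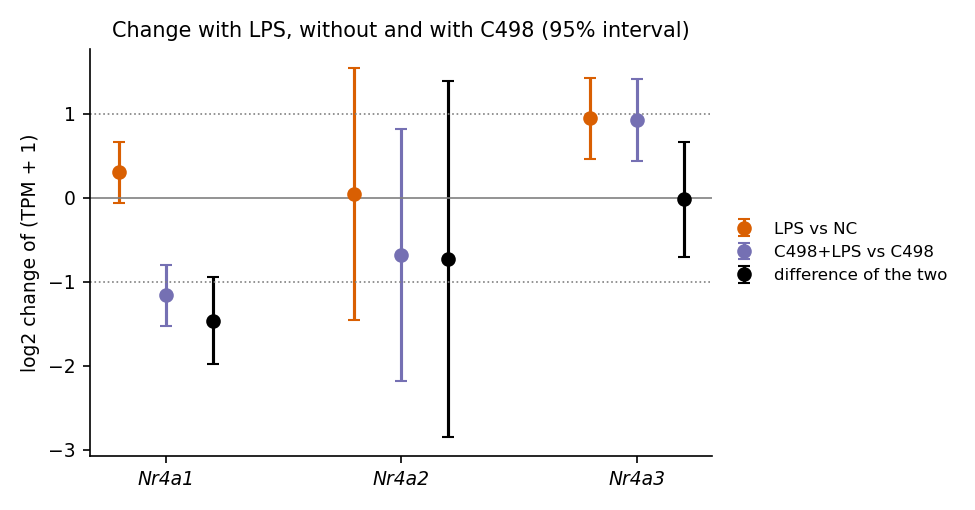
Change of log2(TPM + 1) with LPS for each Nr4a gene without C498 (orange), with C498 (purple) and the difference between them (black), with 95% intervals from limma and dotted lines at 2-fold. With C498, Nr4a1 lies at -1.16 and Nr4a3 at 0.93, and every interval of Nr4a2 spans 0.

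On the log2(TPM + 1) scale, the described difference between C498 and NC was 5.64 for Nr4a1, 4.30 for Nr4a2 and 3.07 for Nr4a3, and that between C498+LPS and LPS was 4.18, 3.58 and 3.05. In these comparisons 5.64% and 5.39% of the tested genes were called higher and 1.36% and 2.18% lower. The pseudocount compresses low levels, and with 0.1 TPM in its place the differences between C498 and NC were 6.43, 6.07 and 4.20.

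Markers of other cell types moved with the Nr4a genes. Of 5 fibroblast markers (Col1a1, Col1a2, Col3a1, Pdgfra and Dcn), none was at 0 in any sample, 5 were called higher in C498 vs NC and 4 in C498+LPS vs LPS, with a median change of 2.00 in each on the log2 scale, beside 5.64% and 5.39% of all tested genes called higher. Their summed level was 150.2 and 192.3 TPM in NC, 175.8 and 200.5 TPM in LPS, 633.2 and 750.0 TPM in C498, and 618.0 and 910.5 TPM in C498+LPS. The C498+LPS sample with the lower sum, replicate 1, is also the one with less Nr4a2. Summed markers of other types also differed between the C498+LPS samples. They were lower in replicate 1 for B cells (4.46 against 13.78 TPM), mast cells (7.04 against 16.11 TPM), T cells (2.64 against 5.36 TPM) and endothelium (2.8 against 7.16 TPM, a gap mostly in Cdh5), and higher there for neutrophils (81.61 against 72.16 TPM) and macrophages (14467 against 12652 TPM). Of 4 mesothelial markers, 3 were tested and 2 were called higher in each comparison. Of the tested markers, Krt19 and Upk3b stood at 0.11 to 0.6 TPM without C498 and passed the filter through the C498 groups. The sum of the 4 was 3.67 to 4.65 TPM without C498 and 12.7 to 21.4 TPM with it. Of 8 neutrophil markers, 3 were tested and 1 was called lower in each comparison (medians -0.938 and -1.48), beside 1.36% and 2.18% of all tested genes. The sum of the 8, most of it S100a8, was 82.3 to 134.7 TPM without C498 and 52.6 to 81.6 TPM with it. S100a9 stood at 0 TPM without C498 and at 0 to 0.86 TPM with it. The eosinophil sum was 1.58 to 2.21 TPM without C498 and 0.67 to 0.92 TPM with it, with no marker tested. The dendritic cell sum was 0.89 to 2.09 TPM without C498 and 3.1 to 4.95 TPM with it, and its 1 tested marker, Zbtb46, passed the filter through the C498 groups. The 10 macrophage markers were all tested and none was at 0 in any sample. In C498 vs NC 1 was called higher, the LPS co-receptor gene Cd14, and none lower, beside 5.64% and 1.36% of all tested genes. Their median change there was -0.441 on the log2 scale, with 2 of the 10 changes above 0. In C498+LPS vs LPS the median was -0.629, again with 2 above 0. Their sum, most of it the lysozyme gene Lyz2, was 20644 to 21088 TPM in NC, 18402 to 18928 TPM in LPS, 16246 to 16396 TPM in C498 and 12652 to 14467 TPM in C498+LPS. In bulk samples fewer cells of a type and less RNA per cell cannot be told apart, and the part of these shifts in the Nr4a levels was not tested.

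**Figure D5:**
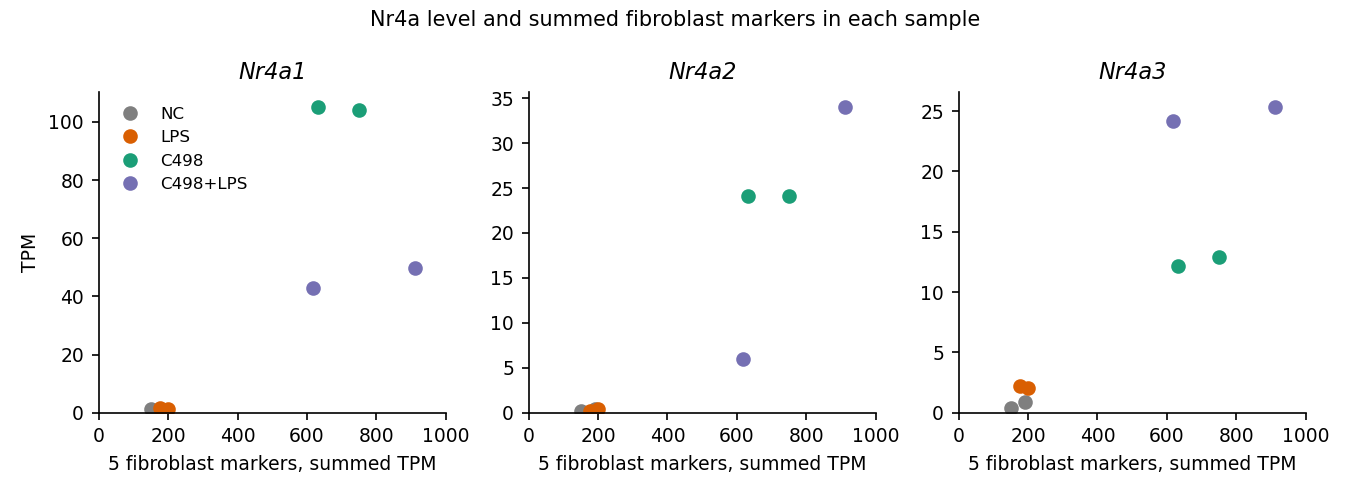
TPM of each Nr4a gene against the summed TPM of 5 fibroblast markers in the 8 samples, colored by group. The samples without C498 lie at sums of 150.2 to 200.5 TPM and those with it at 618.0 to 910.5 TPM.

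The other immediate-early genes are the closest comparison, since they answer to the same kind of stimulus. Of 25 listed, 24 were tested. The list was drawn up with earlier results of these data known, so its calls are a description and no independent test. In C498 vs NC 20 were called higher and none lower, beside 5.64% and 1.36% of all tested genes, with a median difference of 2.04 on the log2 scale where the median of all tested genes was 0.0145. For C498+LPS vs LPS, 15 were called higher and none lower, beside 5.39% and 2.18% of all tested genes, with a median of 1.45 where that of all tested genes was 0.00653. The genes with the largest rise in C498 vs NC were Dusp1, a phosphatase that switches off MAP kinases (4.79, limma adjusted p = 1.08e-05), Fosb, an AP-1 subunit (4.71, adjusted p = 3.94e-05), the zinc finger factor Egr1 (4.24, adjusted p = 1.29e-05) and Csrnp1 (3.55, adjusted p = 3.94e-05). Fosb was at 0 to 0.06 TPM without C498, so it passed the filter through the C498 groups and its value depends on the pseudocount. Dusp1 stood at 16.98 and 14.65 TPM in NC, 12.81 and 15.26 TPM in LPS, 496.1 and 434.55 TPM in C498, and 131.47 and 152.65 TPM in C498+LPS. Like Nr4a1, it was highest in C498 alone in both samples.

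With LPS the list divided. LPS vs NC called 5 of the 24 immediate-early genes higher and 3 lower, beside 5.55% and 6.68% of all tested genes. Among the 5 were Maff (2.36, limma adjusted p = 2.75e-05), Ier3 (1.37, adjusted p = 0.000165), Csrnp1 (1.07, adjusted p = 0.0029) and Junb (1.04, adjusted p = 0.000224). The 3 that fell were the AP-1 subunits Fos, which fell by 2.39, and Jun, which fell by 1.64, and the zinc finger factor Egr2, which fell by 1.79 (limma adjusted p = 4.76e-05, 0.000163 and 0.00133). After C498, LPS called none of them higher and 5 lower, beside 2.52% and 3.13% of all tested genes. These 5 were Fos, Jun, Egr2, Fosb and Dusp1, which fell by 1.97, 1.77, 1.75, 1.71 and 1.71 on the log2 scale, beside the fall of 1.16 for Nr4a1. The interaction was called for 3, beside 0.394% of all tested genes called lower: Maff at -1.61, Dusp1 at -1.54 and Ier3 at -1.05 (limma adjusted p = 0.019, 0.031 and 0.043), and its median over the 24 genes was -0.705 where the median of all tested genes was -0.0265. These calls were not stable, since 0 of them were left without any single LPS, C498 or C498+LPS sample or without a variance trend, and 1 without NC replicate 2, with median centring or without the filter on low values. The AP-1 subunit Fos was lower with LPS in every pair of samples, at 15.9 and 14.32 TPM in NC and 1.89 and 2.27 TPM in LPS.

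Genes that respond to cAMP through CREB, the factor of the motif printed above, formed a short list, with 7 of 12 tested and 2 at 0 in all samples. This list was also drawn up with earlier results of these data known, so its calls are no independent test. In C498 vs NC 6 of the 7 were called higher and none lower, beside 5.64% and 1.36% of all tested genes. In C498+LPS vs LPS 5 were called higher, beside 5.39%, among them Areg, which passed the filter through the C498+LPS group and stood at 0 to 0.56 TPM in NC and LPS. The largest changes in C498 vs NC were those of the small GTPase Gem (4.36, limma adjusted p = 3.31e-05), the kinase Sik1 (2.30, adjusted p = 0.000899), the CREB relative Crem (1.69, adjusted p = 0.000309) and Rgs2, a regulator of G protein signaling (1.62, adjusted p = 0.00345). In C498+LPS vs C498, Rgs2, Sik1 and the clock gene Per1 fell by 1.54, 1.52 and 1.07, and Pde4b, a phosphodiesterase that degrades cAMP, rose by 1.54 (limma adjusted p = 0.00403, 0.00484, 0.0261 and 0.00653), beside 3.13% of all tested genes called lower and 2.52% higher. In LPS vs NC, Gem rose by 2.82 and Pde4b by 2.39, and Rgs2 fell by 2.55 and Sik1 by 1.06. Gem was the list's single call in the interaction, at -2.16 (limma adjusted p = 0.0213), beside 0.394% of all tested genes called lower, and was no longer called without any single LPS, C498 or C498+LPS sample, without a variance trend or without the filter on low values. Leaving out LPS replicate 1 or C498+LPS replicate 2 left 3 genes called higher in C498+LPS vs LPS, and leaving out C498 replicate 1 or C498 replicate 2 left 1 called lower in C498+LPS vs C498. The rise of Pde4b in that comparison was the list's only higher call and was lost without C498 replicate 1, C498 replicate 2 or C498+LPS replicate 1. In LPS vs NC 2 were called higher and 2 lower, beside 5.55% and 6.68%. The number called lower was 1 with median centring, quantile normalization or only the groups compared, and 3 with a pseudocount of 0.1 TPM. It also moved on leaving out single samples.

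Factors known to act upstream of the family were also listed. Of 21 CREB, MEF2, SRF and NFAT factors with their kinases and deacetylases, 19 were tested. In C498 vs NC 2 were called higher, Crem at 1.69 and Mef2d at 1.11 (limma adjusted p = 0.000309 and 0.00937), beside 5.64% of all tested genes. Leaving out NC replicate 1 gave 5 such calls, where 1203 of all tested genes were called higher, and leaving out NC replicate 2, C498 replicate 1 or C498 replicate 2 gave 1. In C498+LPS vs LPS none was called with all samples, 1 without LPS replicate 1 or LPS replicate 2, and 2 without C498+LPS replicate 1, beside 5.39% of all tested genes with all samples. The deacetylase Hdac5, which represses MEF2, fell by 1.99 in LPS vs NC and by 1.42 in C498+LPS vs C498 (limma adjusted p = 0.000109 and 0.00112). The activity of these factors is set largely by phosphorylation, which RNA levels do not measure.

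Of the 46 other nuclear receptors, 18 passed the filter and 11 were at 0 in every sample. In C498 vs NC 2 of the 18 were called higher, the clock repressor Nr1d2 at 1.54 and its activating counterpart Rora at 1.48 (limma adjusted p = 0.01 and 0.0324), and none lower, beside 5.64% and 1.36% of all tested genes. None was called higher without C498 replicate 1 or C498 replicate 2, and 1 without NC replicate 2, C498+LPS replicate 1 or C498+LPS replicate 2. Nr1d2 alone was called in C498+LPS vs LPS, at 1.60 (limma adjusted p = 0.0073), 1 of 18 where 5.39% of all tested genes were called higher. This call was lost without LPS replicate 2, while without C498+LPS replicate 2 there were 2 calls. Nr1d2 stood at 3.08 to 5.08 TPM in NC and 13.21 to 13.78 TPM in C498. LPS vs NC called 1 higher, the glucocorticoid receptor Nr3c1 at 1.52 (limma adjusted p = 0.0193), and 3 lower, beside 5.55% and 6.68%. The call of Nr3c1 was lost without NC replicate 2, LPS replicate 1 or LPS replicate 2. The lipid sensor Pparg fell by 1.94, the common dimer partner Rxra fell by 1.22 and Nr2f6 fell by 1.05 (limma adjusted p = 0.000165, 0.00256 and 0.00356). Pparg and Rxra also fell in C498+LPS vs C498, by 1.27 and 1.10 (limma adjusted p = 0.00239 and 0.00819). These calls stood beside 3.13% of all tested genes, and that of Rxra depended on the setting, as given with its partners. In the interaction no receptor was called.

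Rxra was the most abundant retinoid X receptor, the partner class of Nr4a1 and Nr4a2, in NC. Its level was 46.2 and 33.36 TPM in NC, 17.1 and 15.4 TPM in LPS, 27.51 and 27.32 TPM in C498, and 13.31 and 11.31 TPM in C498+LPS. Rxrb was present at 13.62 to 27.79 TPM and Rxrg at 0 to 0.11 TPM over the 8 samples. Of 15 partners and coregulators, 14 were tested, and Rxra was the single call over the 5 comparisons, lower in both LPS comparisons, where 6.68% and 3.13% of all tested genes were called lower, so that 1 of 14 is near the background. This count turned on single samples. Without NC replicate 1, 3 were called higher in C498 vs NC, where the calls over all tested genes rose from 687 to 1203, and none lower in LPS vs NC. Without NC replicate 2 or with a pseudocount of 0.1 TPM 2 were lower in LPS vs NC. In C498+LPS vs C498 none was called with median centring or quantile normalization or without C498 replicate 1, C498 replicate 2 or C498+LPS replicate 2. Of 11 genes known as Nr4a targets in other tissues, such as steroidogenic and dopaminergic cells, 5 were at 0 in every sample and only Eno3 and Spp1 were tested, with no call in any comparison.

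The tested genes whose levels over the 8 samples were most like those of each member were named by Pearson r on log2(TPM + 1) among 11881 genes with a symbol. The samples fall into those with and without C498, so that r mostly records this difference and is given as a description. For Nr4a1 these were the processed pseudogene Gm44389 (r = 0.998), the antisense RNA Gm7008 (0.994), the heat shock protein gene Hspa1a (0.992), Fosb (0.989) and Dusp1 (0.988). For Nr4a2 they were the immediate-early gene Ier2 (0.994), the Wnt receptors Fzd2 (0.994) and Ryk (0.989), the collagen cross-linking enzyme Loxl1 (0.993) and Ahcy (0.989). For each of these 5 the level was lower in C498+LPS replicate 1 than in replicate 2, an order that choosing them by r over the same samples favors. For Nr4a3 they were Nckap1 (0.995), the collagen gene Col5a3 (0.994), Arhgap23 (0.993), Zfp36, which encodes an mRNA-destabilizing protein (0.992), and Ccdc171 (0.992). As for Nr4a3, Zfp36 stood highest in C498+LPS, at 234.23 and 238.63 TPM, beside 178.35 and 162.23 TPM in C498. With a pseudocount of 0.1 TPM, 4, 1 and 2 of the 5 names were kept, and with ranks 0, 0 and 1. The number of genes with r above 0.95 was 178, 193 and 263.

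The nearest tested genes on either side did not share the size of the Nr4a differences. Beside Nr4a1, Atg101 lies 9477 bases away and had means of 35.1 TPM in NC, 26.8 in LPS, 42.7 in C498 and 40.0 in C498+LPS. On its other side Tamalin lies 21513 bases away, with 0.32 and 0.45 TPM without C498 and 2.64 and 3.8 TPM with it, the last from samples at 1.52 and 6.08 TPM. Beside Nr4a2, Gpd2 lies 113632 bases away and was highest in LPS, with means of 14.2, 39.9, 14.9 and 18.7 TPM in the same order. Beside Nr4a3, Stx17 lies 38468 bases away and was present at 5.25 to 7.85 TPM in the group means. The nearest tested genes on their other sides, Arl6ip6 and Sec61b, lie 3887610 and 561911 bases away.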

How the data were processed

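RNA of 8 samples of elicited peritoneal macrophages was sequenced by the authors, who per the labels filtered reads with fastp and used HISAT2, StringTie and RSEM. Each sample has 1 column of TPM in the deposited table, beside group means and gene annotation. The genome build is not given in the sources used here, and read numbers cannot be taken from TPM, so depth is unknown. The table holds 55801 genes. A filter of a mean of 1 TPM over all samples left 12189 genes. A linear model was fitted to their log2(TPM + 1) by limma 3.58.1 (R 4.3.3), with 1 mean per group, a variance trend on mean expression and Benjamini-Hochberg adjustment. The fit was tested on simulated data. Each call needed an adjusted p no higher than 0.05 and a 2-fold change. The members and gene lists were chosen with earlier results of these data known. Named genes are the members, their nearest tested neighbours, the 5 genes with the highest Pearson r with each, and up to 4 called genes of each list with the largest change in each direction. Beyond this rule, all 5 immediate-early genes called lower in C498+LPS vs C498 are named, as are some marker genes and other retinoid X receptors. Positions are from GENCODE M21 (GRCm38), where 97.4% of the tested identifiers were found, and promoters from a RefSeq table (GRCm38.p6) that matched all 3 members by symbol. Alternatives were other pseudocounts, filters, scalings, fits and leaving out each sample, and running these for the list counts was chosen after seeing the data. Macrophage marker calls in comparisons other than C498 vs NC are not reported here.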

Additional observations from a re-analysis of the deposited data

Results flagged for a closer look

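The samples of Nr4a1 moved in opposite directions with LPS, without and with C498. Both LPS samples (1.44 and 1.79 TPM) lay above both NC samples (0.97 and 1.27 TPM), whereas both C498+LPS samples (42.82 and 49.75 TPM) lay below both C498 samples (105.09 and 104.0 TPM). The difference between the 2 changes was -1.47 on the log2(TPM + 1) scale, with a limma adjusted p of 0.0504 for the interaction. No direction was established without C498, where the change was 0.30 with a 95% interval of -0.0626 to 0.669, and the interaction was not called. It is built from the C498 effects by which the gene was chosen.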

How the results depend on the processing

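Of 239 values of the 3 genes under the alternatives, 201 kept their direction and their side of the threshold or moved by less than the replicate spread, and 38 did not. The causes were not tested. The 239 include values for C498 vs NC and C498+LPS vs LPS, by which the members were chosen, so a kept direction there follows from the choice. In LPS vs NC, Nr4a3 was called at 1.69 with a pseudocount of 0.1 TPM, 1.12 with median centring and 1.09 with quantile normalization, and ranged from 0.698 to 1.195 on leaving out samples. Nr4a2 was 0.218 with median centring and -0.0826 to 0.18 on leaving out samples, with -0.0701 without NC replicate 2 and -0.0826 without LPS replicate 1. In C498+LPS against C498, Nr4a1 was -0.948 with median centring and -1.27 to -1.06 on leaving out samples, and Nr4a3 was 1.14 with median centring and 1.16 with quantile normalization, each called. Without a fold threshold Nr4a3 passed at 0.946 and 0.928. Nr4a2 was -1.84 to 0.478 on leaving out samples. For the interaction, Nr4a1 passed at -1.47 with a minimum mean of 5 TPM (adjusted p = 0.0403) and with the replicate block (-1.47, adjusted p = 0.0280), and at -1.36 and -1.57 without NC replicate 1 and NC replicate 2. The interaction of Nr4a3 turned to 0.0275 with median centring and 0.0789 with quantile normalization, and to 0.23, 0.0211, 0.0222 and 0.0148 without NC replicate 2, LPS replicate 2, C498 replicate 2 and C498+LPS replicate 1, with -0.267 to 0.23 over all left-out samples and -0.716 with a pseudocount of 0.1 TPM. That of Nr4a2 was -1.89 to 0.429 on leaving out samples. In C498 vs NC the values with a pseudocount of 0.1 TPM were 6.43, 6.07 and 4.20, and Nr4a3 was 2.82 with quantile normalization and 2.82 to 3.31 on leaving out samples. For C498+LPS vs LPS they were 4.76, 5.17 and 3.49, Nr4a1 was 4.04 with quantile normalization, and Nr4a2 was 2.42 to 4.73 on leaving out samples.

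Numbers of called genes moved too. In LPS vs NC, 814 lower calls became 530 with median centring and 510 with quantile normalization, and without a fold threshold 1200 were higher and 2409 lower. For C498+LPS vs C498, 381 lower calls became 196 with median centring, and without a fold threshold 550 were higher and 1430 lower. The interaction had 9 higher and 48 lower calls, 3 and 15 without the filter and 3 and 9 without a variance trend. In C498 vs NC, 687 higher calls became 452 with a minimum of 5 TPM and 372 with only the groups compared, 166 lower calls became 269 with median centring, 266 with quantile normalization and 104 with only the groups compared, and without a fold threshold 1132 were higher and 754 lower. For C498+LPS vs LPS, 657 higher calls became 382 with a minimum of 5 TPM, and without a fold threshold 1107 were higher and 938 lower. On leaving out samples, higher and lower calls ranged from 523 to 944 and 639 to 1074 in LPS vs NC, 191 to 324 and 190 to 406 in C498+LPS vs C498, 0 to 31 and 7 to 102 in the interaction, 292 to 1203 and 76 to 214 in C498 vs NC, and 309 to 690 and 142 to 285 in C498+LPS vs LPS.

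Replicate numbers were not taken to pair the samples, since correlations of same-numbered deviations were 0.102 to 0.168 for the 3 pairs with NC and 0.0397 to 0.0417 for the other 3. Median centring moved the median of all tested genes from -0.169 to -0.000539 in LPS vs NC and from -0.176 to 0.038 in C498+LPS vs C498. It moved that median away from 0 in C498 vs NC, from 0.0145 to -0.108, and in C498+LPS vs LPS, from 0.00653 to -0.0698. Nr4a2 could not be fitted with only the NC and LPS samples. With 2 samples per group and TPM alone, counting error at low levels is not known.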

Other observations

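Gm44389, a processed pseudogene of 182 bases (chr6:60461933-60462114, minus strand, GENCODE M21 on GRCm38), had the level most like that of Nr4a1. It was listed at 0 in all NC and LPS samples, and stood at 236.71 and 207.41 TPM in C498 and 66.7 and 106.84 TPM in C498+LPS. Whether reads of its parent gene are counted there was not tested.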
